A study of Medicago truncatula with 16 samples.

Results

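The genes described here are 3 genes for late embryogenesis abundant (LEA) proteins of *Medicago truncatula*, out of 44473 genes in the counts table. They are *MtPM25* (*MtrunA17_Chr1g0205331*, chromosome 1), annotated to the SMP (seed maturation protein) subgroup, *MtEM6* (*MtrunA17_Chr4g0007001*, chromosome 4), annotated to the LEA_5 subgroup, and a gene of the LEA_2 subgroup (*MtrunA17_Chr8g0348171*, chromosome 8). They were taken by identifier, and all 3 were found in the table and passed the filter on low counts in every model. Chromosomes are those in the identifiers, and coordinates were not used here. The study placed all 3 among genes that were raised in R1P radicles and whose chromatin was more open in R1P by ATAC-Seq. They also fell in its cluster of genes that it described as raised in R1P alone of the 4 radicle groups. Here each of the 3 was also called higher in R5P than in R5, though it was lower in R5P than in R1P. The study's description was of the cluster as a whole, with each group set against R1. R5P was not tested against R1 here. The expression part of the study's choice used the radicle libraries that are used here. The PEG and stage differences in radicles thus rest on the groups used for the choice and are given as a description. The high level in R1P that the choice required also enters the comparisons of cotyledons with R1P. Levels in R1, R5 and R5P entered the study's clustering too, so the other comparisons of cotyledons with radicles are not independent of the choice either. The cotyledon libraries had no part in the study's choice.

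LEA proteins accumulate in plant embryos as the seed matures and dries, and are lost again after germination. Most are very hydrophilic, have little fixed structure in water and fold as water is withdrawn, and they are thought to shield membranes and other proteins in the dry state. Their genes are classic targets of abscisic acid (ABA), the hormone of seed maturation and of drought. In Arabidopsis, the LEA_5 protein EM6 is a product of the late embryo, the SMP proteins take their name from their appearance in maturing seeds, and LEA_2 proteins are unusual in the family in having a folded, less hydrophilic domain.

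RNA-Seq was performed on 16 libraries of germinating seeds of cultivar A17, with 2 biological replicates in each of 8 groups. C5P and C1P were cotyledons, and R5P and R1P radicles, of seeds whose radicle had reached 5 mm or 1 mm and which then stood in polyethylene glycol (PEG), an osmoticum that draws water from tissue, for 3 days at -1.7 MPa and 10 °C in the dark. C5, C1, R5 and R1 were the same tissues and stages without PEG. There was no group held in the cold and dark for those 3 days without PEG, so the effects of both cannot be told apart, and the labels speak both of desiccated and of freshly harvested material. Each library pooled many seeds, for which the labels give either about 100 or 50, and a library of a whole organ mixes its cell types. Fewer cells of a type and less RNA per cell therefore cannot be told apart in any result below.

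Estimated counts summed to between 22012976 and 23257652 per library, with a median of 22857447, and all 48 values of the LEA genes were whole numbers, the lowest of them 4 counts. Levels are given as CPM (counts divided by library size, with TMM factors over the 16 libraries), and 3 counts, taken as the floor, stood for 0.108 to 0.192 CPM. Replicates correlated at a Pearson r of 0.9662 (C1P) to 0.9938 (R5) across genes. The C1P replicates stood farthest apart, and C1P replicate 2 had the lowest TMM factor of all libraries, 0.7093. The C5 replicates stood apart in 2 of the LEA genes, as given below. Results that rest on these groups are given with and without their replicates where the call changed, and for some results where only the value moved.

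The tissues were checked against marker genes. A pair of chlorophyll a-b binding genes summed to 240 to 309 CPM in C5P against 63.9 to 75.1 in R5P, to 101 to 121 in C1P against 28.8 to 30.3 in R1P, to 6.88 to 14.2 in C5 against 7.7 to 10.4 in R5, and to 8.85 to 9.24 in C1 against 0.779 to 0.96 in R1. The sum was thus higher in cotyledons except at the untreated 5 mm stage, where the libraries overlapped. That overlap came from *MtrunA17_Chr5g0448421*, while *MtrunA17_Chr5g0448411* separated the tissues there too, with 2.61 and 1.48 CPM in C5 against 0.199 and 0.232 CPM in R5. The only radicle marker on the list, a casparian strip membrane protein gene, did not mark radicles in every pair. It was higher in C5 (31.1 to 66.7 CPM) than in R5 (11.4 to 15.4), and in C1P (1.4 to 3.2) than in R1P (0.414 to 1). C1 (9.49 to 10.5) and R1 (7.14 to 9.84) overlapped. Only with PEG at 5 mm was it higher in radicles, with 8.82 to 9 CPM in R5P against 3.89 to 5.69 in C5P. The part of other cell types in the results below was not tested.

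**Figure D1:**
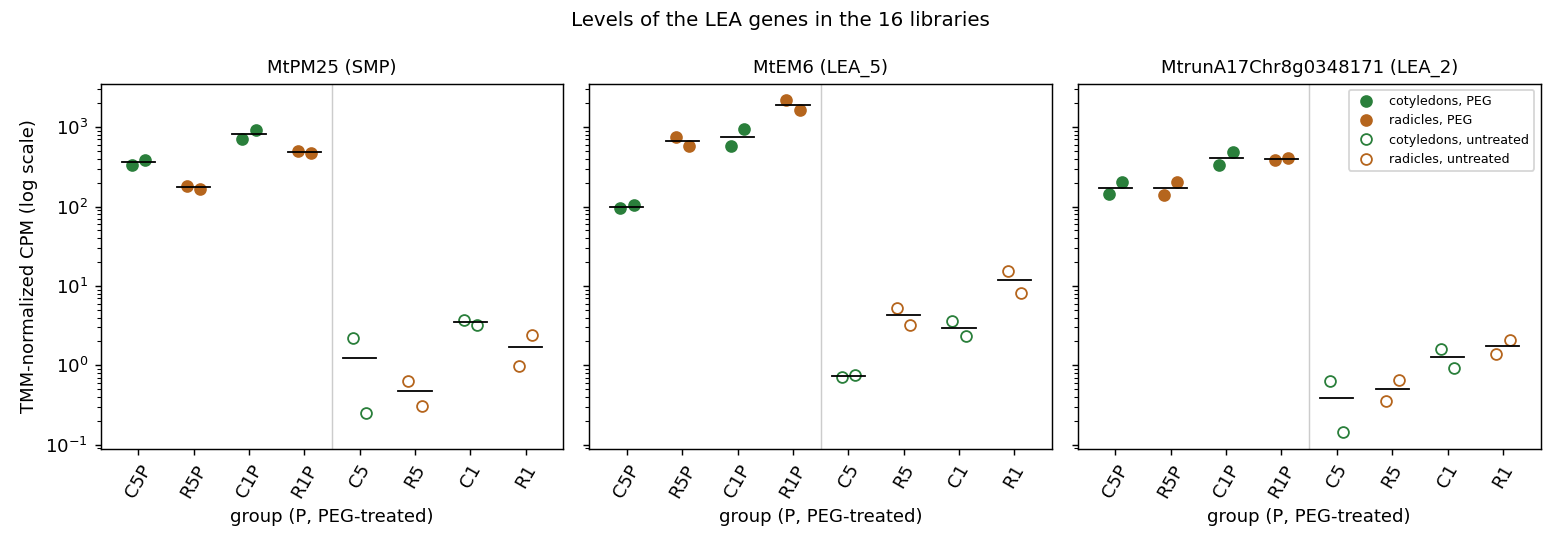
Level of each LEA gene in each of the 16 libraries, as TMM-normalized CPM on a log axis. Points are single libraries (green, cotyledons; brown, radicles; filled, PEG-treated; open, untreated) and bars are the means of 2 replicates. All PEG-treated libraries lie between 96.8 and 2180 CPM and all untreated ones between 0.144 and 15.2 CPM.

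*MtPM25* had its highest level in PEG-treated cotyledons of the 1 mm stage. It had 334 and 384 CPM in the C5P replicates against 181 and 168 CPM in R5P, and 702 and 932 CPM in C1P against 505 and 472 CPM in R1P. Both PEG-treated cotyledon groups lay above the radicle group of their stage, without overlap. Here and below, the share of all genes whose groups do not overlap was not counted, so a lack of overlap is a description only. Without PEG it had 3.72 and 3.26 CPM in C1 (100 and 88 counts) against 0.984 and 2.38 CPM in R1 (24 and 62 counts), and the C1 libraries were again the higher ones. In C5 it had 2.19 and 0.252 CPM (52 and 7 counts) against 0.638 and 0.309 CPM in R5 (16 and 8 counts), so these groups overlapped, and the C5 replicates lay on both sides of R5.

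Ordered by mean, the level of *MtPM25* was 817 CPM in C1P, 488 in R1P, 359 in C5P and 174 in R5P, followed by 3.49 in C1, 1.68 in R1, 1.22 in C5 and 0.474 in R5. Neighbours in this order did not overlap as far as R1, while R1, C5 and R5 each overlapped with the next. Among the treated groups, the 1 mm groups of both tissues lay above both 5 mm groups, and within a stage cotyledons lay above radicles.

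*MtEM6* had its highest levels in radicles. It had 96.8 and 103 CPM in C5P against 758 and 571 CPM in R5P, and 577 and 945 CPM in C1P against 2180 and 1654 CPM in R1P. Without PEG it had 0.716 and 0.757 CPM in C5 (17 and 21 counts) against 5.3 and 3.25 CPM in R5 (133 and 84 counts), and 3.57 and 2.34 CPM in C1 (96 and 63 counts) against 15.2 and 8.26 CPM in R1 (371 and 215 counts). In all 4 pairs both cotyledon libraries were below both radicle libraries.

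By mean, *MtEM6* stood at 1917 CPM in R1P, 761 in C1P, 665 in R5P and 99.98 in C5P, then at 11.7 in R1, 4.28 in R5, 2.95 in C1 and 0.737 in C5. C1P and R5P overlapped, as did R5 and C1, and the other neighbours did not. C5P, the lowest of the treated groups, was still above every untreated library.

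The LEA_2 gene was the one that did not separate by tissue. It had 143 and 201 CPM in C5P against 140.5 and 203 CPM in R5P, and 336 and 483 CPM in C1P against 385 and 407 CPM in R1P. Without PEG it had 0.632 and 0.144 CPM in C5 (15 and 4 counts) against 0.359 and 0.658 CPM in R5 (9 and 17 counts), and 1.6 and 0.927 CPM in C1 (43 and 25 counts) against 1.39 and 2.07 CPM in R1 (34 and 54 counts). Cotyledons and radicles overlapped in all 4 pairs. The means were 409 CPM in C1P, 396 in R1P, 172 in C5P and 172 in R5P, then 1.73 in R1, 1.26 in C1, 0.508 in R5 and 0.388 in C5, so that each pair of tissues stood side by side in the order.

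To compare the tissues, one edgeR quasi-likelihood model with TMM normalization was fitted to all 16 libraries and 25524 genes, with Benjamini-Hochberg adjustment over all of them. Calls required an absolute log2 fold change over 1 together with an adjusted p under 0.05. Fold changes are cotyledons over radicles, each with its standard error (SE). The radicle side of each was set in part by the choice of genes. Differences between these organs were common: 19.9% of the genes were called higher and 20.2% lower in C5P against R5P, 19.8% higher and 17.8% lower in C1P against R1P, 21.2% higher and 23.7% lower in C5 against R5, and 23% higher and 22.4% lower in C1 against R1. Among the LEA genes, 1 of 3 was called lower and 0 of 3 higher in each of these comparisons, a share that says nothing particular about them. Apart from the calls of *MtEM6*, the only difference with an unadjusted p under 0.05 in edgeR was that of *MtPM25* in C5P against R5P.

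*MtEM6* was called lower in cotyledons at each stage and treatment. Its log2 fold change was -2.73 ± 0.34 (SE, n = 2 libraries a group) in C5P against R5P, which is 6.65-fold lower (adjusted p = 2e-05, edgeR), and -1.33 ± 0.33 in C1P against R1P, 2.52-fold lower (adjusted p = 0.0042, edgeR). Without PEG it was -2.53 ± 0.42 in C5 against R5, 5.76-fold lower (adjusted p = 0.00017, edgeR), and -1.99 ± 0.36 in C1 against R1, 3.96-fold lower (adjusted p = 0.00035, edgeR). Each of these 4 calls held under all 11 alternatives tried, though under the adjusted p alone a call cannot be lost. C1P against R1P was the least firm: its log2 fold change was -1.73 without C1P replicate 2 and -1.03 without C1P replicate 1.

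*MtPM25* lay higher in cotyledons in all 4 fits, and none of the differences passed the threshold. Its log2 fold change was 1.04 ± 0.48 in C5P against R5P, with a 95% interval of 0.01 to 2.08 (adjusted p = 0.086, edgeR), and 0.74 ± 0.48 in C1P against R1P, with an interval of -0.28 to 1.77 (adjusted p = 0.22, edgeR). Without PEG it was 1.32 ± 0.72 in C5 against R5 (interval -0.23 to 2.87) and 1.04 ± 0.56 in C1 against R1 (interval -0.17 to 2.25). The groups did not overlap in 3 of the 4 pairs, which is a description only. With only the 4 libraries compared in the model, C5P was called higher than R5P at 1.04 (adjusted p = 0.0044, edgeR). In C5 against R5 the replicates of C5 decided the sign: the log2 fold change was 2.20 without C5 replicate 2 (adjusted p = 0.0021, edgeR) and -0.89 without C5 replicate 1.

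For the LEA_2 gene, the PEG-treated tissues differed by a log2 fold change of 0.00 ± 0.35 in C5P against R5P (95% interval -0.74 to 0.75) and 0.05 ± 0.35 in C1P against R1P (interval -0.70 to 0.79). Differences as large as 2-fold either way thus lay outside both intervals. Without PEG the estimates were -0.44 ± 0.61 in C5 against R5 (interval -1.76 to 0.88) and -0.46 ± 0.44 in C1 against R1 (interval -1.41 to 0.49), and these wider intervals still held differences of over 2-fold. The C5 replicates, with 15 and 4 counts, moved the first of these to 0.31 without C5 replicate 2 and to -1.79 without C5 replicate 1.

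**Figure D2:**
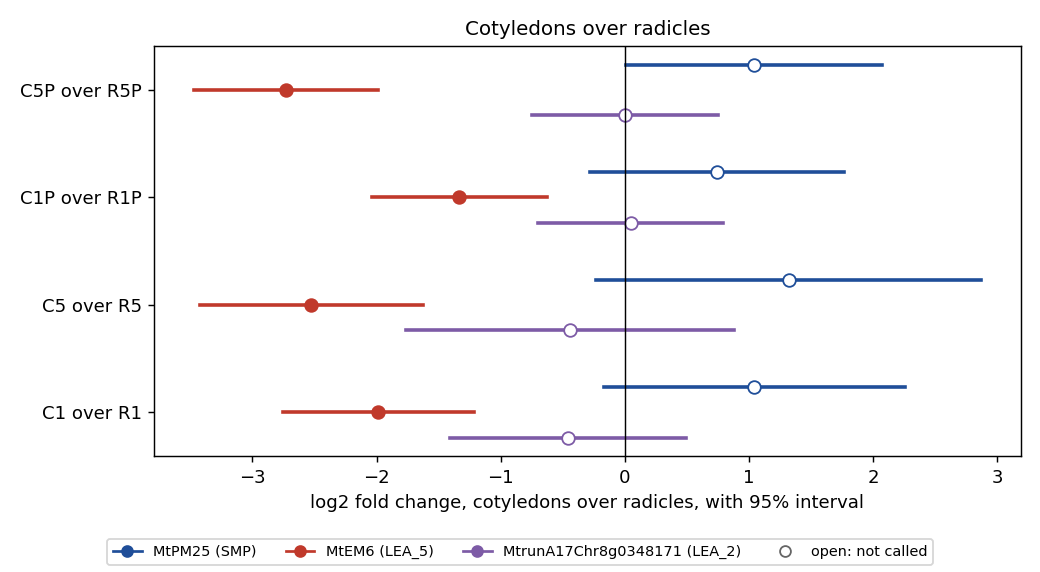
Log2 fold change of the LEA genes in cotyledons over radicles at each stage and treatment, from the edgeR model over 16 libraries. Points are estimates (filled, called; open, not called) and lines 95% intervals. *MtEM6* lies between -2.73 and -1.33 and is called in all 4 comparisons, *MtPM25* between 0.74 and 1.32 and the LEA_2 gene between -0.46 and 0.05, neither called.

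Because the LEA genes were measured in the same libraries, the tissue difference can also be read within a library, from the ratio of 2 genes' counts. Gene length is the same in every library, so such a ratio can be compared between libraries, although its size does not say which gene is the more abundant. *MtEM6* had 0.269 to 3 counts for each count of *MtPM25* in the 8 cotyledon libraries, with a median of 0.769, against 3.41 to 15.5 in the 8 radicle libraries, with a median of 4.26. The tissues did not overlap in this ratio, with or without PEG, and it needs no scaling between libraries. It was chosen after the values were seen.

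The other ratios separated the tissues less. The LEA_2 gene had 0.284 to 0.571 counts for each of *MtPM25* in cotyledons (median 0.454) against 0.562 to 2.12 in radicles (median 0.867), which overlapped at their ends. *MtEM6* had 0.513 to 5.25 counts for each of the LEA_2 gene in cotyledons (median 1.84) against 2.82 to 14.8 in radicles (median 5.17). One untreated cotyledon library, C5 replicate 2, gave the high ends of all 3 cotyledon ranges, and it was the library with 7 counts of *MtPM25* and 4 of the LEA_2 gene.

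**Figure D3:**
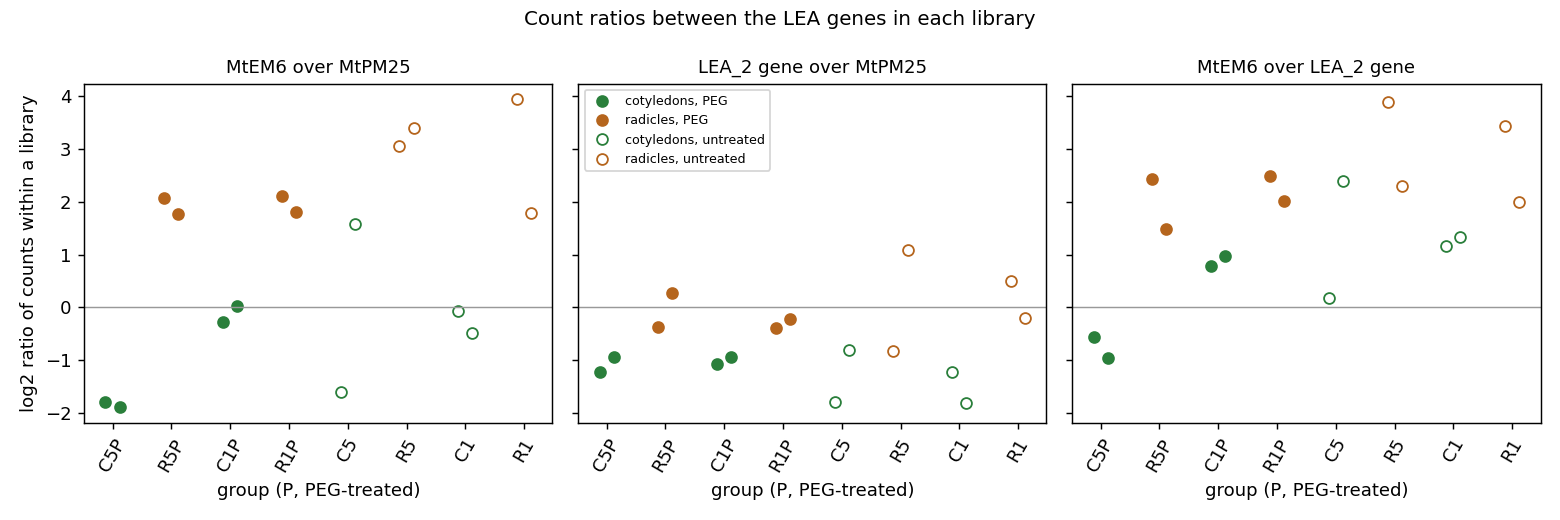
Log2 ratio of the counts of 2 LEA genes within each library. Points are single libraries (green, cotyledons; brown, radicles; filled, PEG-treated; open, untreated). In the left panel all 8 cotyledon libraries lie below all 8 radicle libraries.

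All 3 LEA genes were higher in PEG-treated than in untreated cotyledons, in libraries that played no part in the study's choice of them. The model over the 8 cotyledon libraries tested 23060 genes, of which 9.02% were called higher and 12.1% lower in C5P than in C5, and 13.8% higher and 14.9% lower in C1P than in C1. All 3 LEA genes were called higher in both, and no treated library overlapped with an untreated one. *MtPM25* rose by a log2 fold change of 8.19 ± 0.79 in C5P over C5, or 291-fold (adjusted p = 0.00028, edgeR), and by 7.84 ± 0.77 in C1P over C1, or 229-fold (adjusted p = 0.00027, edgeR).

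*MtEM6* rose by 7.01 ± 0.39 in C5P over C5, or 129-fold (adjusted p = 2.8e-05, edgeR), and by 7.98 ± 0.39 in C1P over C1, or 252-fold (adjusted p = 3.2e-05, edgeR). The LEA_2 gene rose by 8.77 ± 0.61 in C5P over C5, or 435-fold (adjusted p = 6.8e-05, edgeR), and by 8.31 ± 0.58 in C1P over C1, or 317-fold (adjusted p = 6.3e-05, edgeR). These were among the largest changes of the transcriptome: 41 to 121 of the 23060 genes had a greater log2 fold change in C5P over C5, and 31 to 43 in C1P over C1. Folds of this size rest on the low untreated counts, and the replicates of C5 moved those of C5P over C5 most, with *MtPM25* at 10.44 without C5 replicate 1 and 7.35 without C5 replicate 2 on the log2 scale.

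Radicles are given for comparison only, since the study chose the genes on the levels in R1, R1P, R5 and R5P. The model over the 8 radicle libraries tested 23793 genes, of which 18.9% were called higher and 20.4% lower in R5P than in R5, and 15.2% higher and 20.5% lower in R1P than in R1. The log2 fold changes in R5P over R5 were 8.62 for *MtPM25*, 7.39 for *MtEM6* and 8.49 for the LEA_2 gene. In R1P over R1 they were 8.18 for *MtPM25*, 7.37 for *MtEM6* and 7.84 for the LEA_2 gene, and all 6 values were called.

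The size of the PEG rise was compared between tissues by an interaction contrast in the model over 16 libraries, which called 21% of the genes in either direction at 5 mm and 8.25% at 1 mm. None of the LEA genes was among them, nor had any an unadjusted p under 0.05. The radicle side of the contrast was set in part by the choice of genes, so the contrast is not independent of it. At 5 mm the rise in cotyledons minus that in radicles was -0.28 for *MtPM25* (95% interval -2.10 to 1.54), -0.21 for *MtEM6* (-1.41 to 0.99) and 0.44 for the LEA_2 gene (-1.07 to 1.96). With a single replicate left out, this difference ranged from -1.16 to 1.93 for *MtPM25*, -0.60 to 0.11 for *MtEM6* and -0.30 to 1.79 for the LEA_2 gene. At 1 mm it was -0.30 for *MtPM25* (-1.87 to 1.27), 0.65 for *MtEM6* (-0.37 to 1.68) and 0.51 for the LEA_2 gene (-0.70 to 1.71). The tissue difference of *MtEM6* was thus present before and after PEG, and its change with PEG was within these intervals.

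The study set 1 mm seeds, whose radicles can regain desiccation tolerance, against 5 mm seeds, and the stages were compared here within each tissue. The level of every LEA gene was lower at 5 mm than at 1 mm in every tissue and treatment, with no overlap between stages. How many of all genes separate the stages so was not counted, and the radicle levels entered the choice of genes. Not all of these differences passed the test. In PEG-treated cotyledons, where 4.01% of the genes were called higher and 2.21% lower in C5P than in C1P, *MtEM6* fell by 2.97 ± 0.31 on the log2 scale, or 7.85-fold (adjusted p = 0.0041, edgeR). Only 236 of the 23060 genes had a lower log2 fold change. Without C5P replicate 1 the value was -2.88 and just missed the call (adjusted p = 0.05, edgeR).

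*MtPM25* had a log2 fold change of -1.23 ± 0.57 in C5P over C1P (adjusted p = 0.19, edgeR) and the LEA_2 gene -1.29 ± 0.42 (adjusted p = 0.091, edgeR), neither called. In untreated cotyledons 5.7% of the genes were called higher and 2.92% lower in C5 than in C1. There *MtEM6* fell by 2.002 ± 0.354 (adjusted p = 0.012, edgeR), a call lost when C1 replicate 1, C5 replicate 1 or C5 replicate 2 was left out (adjusted p up to 0.096, edgeR). The values were -1.58 ± 0.66 for *MtPM25* (adjusted p = 0.18, edgeR) and -1.75 ± 0.58 for the LEA_2 gene (adjusted p = 0.099, edgeR). For *MtPM25* they were -3.76 without C5 replicate 1, which was called (adjusted p = 0.0073, edgeR), and -0.67 without C5 replicate 2. For the LEA_2 gene they were -3.08 without C5 replicate 1 and -0.99 without C5 replicate 2.

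In radicles the lower level in R5P than in R1P was part of the choice, since the study described its cluster as high in R1P alone. R5 and R1 were among the groups clustered, though the choice did not require R5 to lie below R1. Over that cluster as a whole, the study reported no significant difference in transcript level between R1 and R5. The values are a description and the calls support nothing. All 3 LEA genes met the call in both comparisons. Of the genes tested, 15.3% were called higher and 3.82% lower in R5P than in R1P, and 13.8% higher and 3.78% lower in R5 than in R1. In R5P over R1P *MtPM25* fell by 1.46 ± 0.25 (adjusted p = 0.0018, edgeR), *MtEM6* fell by 1.498 ± 0.292 (adjusted p = 0.0035, edgeR) and the LEA_2 gene fell by 1.18 ± 0.21 (adjusted p = 0.0022, edgeR), the last at -0.94 and thus under the fold threshold without R5P replicate 1. In R5 over R1 *MtPM25* fell by 1.90 ± 0.44 (adjusted p = 0.0095, edgeR), *MtEM6* fell by 1.52 ± 0.33 (adjusted p = 0.0064, edgeR) and the LEA_2 gene fell by 1.83 ± 0.37 (adjusted p = 0.0046, edgeR). Untreated radicles were the less firm of the 2 comparisons: *MtPM25* was no longer called without R1 replicate 2 (-1.12, adjusted p = 0.079, edgeR) or without R5 replicate 2 (-1.47, adjusted p = 0.082, edgeR), and *MtEM6* without R1 replicate 1 (-1.02, adjusted p = 0.059, edgeR) or without R5 replicate 2 (-1.21, adjusted p = 0.059, edgeR).

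**Figure D4:**
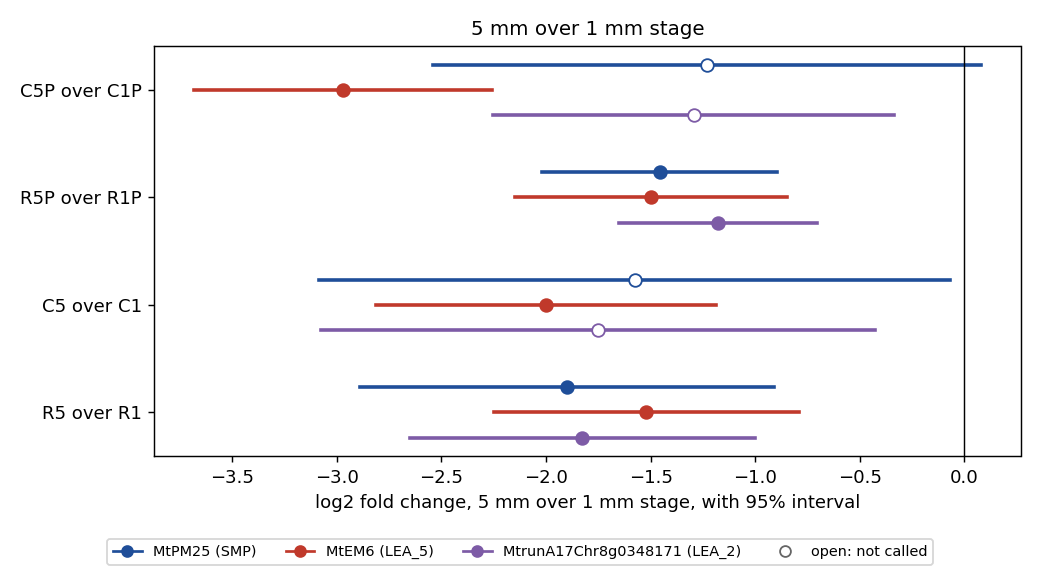
Log2 fold change of the LEA genes at the 5 mm over the 1 mm stage in each tissue and treatment, from the edgeR models of each tissue. Points are estimates (filled, called; open, not called) and lines 95% intervals. All 12 estimates lie below 0, from -2.97 for *MtEM6* in C5P over C1P to -1.18 for the LEA_2 gene in R5P over R1P.

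Whether the stage difference depended on tissue was tested as a contrast of all 4 groups, with the radicle side set in part by the choice of genes. The contrast called 10.2% of the genes with PEG and 5.44% without. The clearest case was *MtEM6* with PEG, where the log2 fold change between stages in cotyledons minus that in radicles was -1.40 ± 0.46 (95% interval -2.39 to -0.41), with an unadjusted p of 0.0089 and an adjusted p of 0.068 in edgeR. This missed the threshold and passed it under some alternatives (-1.39 with no filter on low counts, adjusted p = 0.017 in edgeR, and -1.45 in DESeq2, adjusted p = 0.02). It moved with the C1P replicates, at -1.71 without C1P replicate 1 (adjusted p = 0.022, edgeR) and -0.9998 without C1P replicate 2 (adjusted p = 0.22, edgeR). The same contrast with PEG was 0.30 for *MtPM25* (interval -1.15 to 1.75) and -0.04 for the LEA_2 gene (interval -1.10 to 1.01).

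Without PEG it was 0.28 for *MtPM25* (-1.67 to 2.22), -0.54 for *MtEM6* (-1.71 to 0.63) and 0.02 for the LEA_2 gene (-2.08 to 2.12). With a single replicate left out, it ranged from -1.93 to 1.16 for *MtPM25*, -1.04 to -0.15 for *MtEM6* and -1.33 to 0.77 for the LEA_2 gene. Whether the PEG rise differed between the stages was tested within each tissue, where 1.22% of the genes were called in cotyledons and 8.65% in radicles. In cotyledons the rise at 5 mm minus that at 1 mm was 0.35 for *MtPM25* (-1.61 to 2.30), -0.97 for *MtEM6* (-2.04 to 0.09) and 0.46 for the LEA_2 gene (-1.15 to 2.06). The C5 replicates decided its sign in 2 genes. Without C5 replicate 1 it was 2.57 for *MtPM25* and 1.83 for the LEA_2 gene, and without C5 replicate 2 it was -0.52 and -0.26. In radicles it was 0.44 for *MtPM25* (-0.70 to 1.59), 0.02 for *MtEM6* (-0.89 to 0.94) and 0.65 for the LEA_2 gene (-0.31 to 1.61). No LEA gene was called. The interval of *MtEM6* in radicles held no difference as large as 2-fold, and the other 5 intervals did. Because of the choice of genes, no conclusion is drawn from that interval.

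The LEA genes were next set beside 17 other genes annotated as LEA proteins or dehydrins (hydrophilic proteins that form a LEA group of their own). These are the ones annotated so in the study's supplement, not the whole family in the genome. Most of these had been chosen by the study for a rise in R1P radicles, so that their radicle counts are not independent of it. Such a list may also favour genes that rise with PEG in cotyledons, so its shares do not describe LEA genes in general. In cotyledons, 14 of 17 (82.4%, against 9.02% of all genes tested) were called higher and 2 (11.8%, against 12.1%) lower in C5P than in C5, with a median log2 fold change of 7.48 against -0.05 over all genes tested. In C1P against C1, 14 (82.4%, against 13.8%) were called higher and 1 (5.88%, against 14.9%; 3 with library totals in place of TMM) lower, with a median of 6.56 against -0.08 over all genes. The 3 LEA genes lay above both medians, except *MtEM6* in C5P over C5 at 7.01.

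In radicles, 15 of the 17 (88.2%) were called higher and 1 lower both in R5P against R5 (18.9% of all genes higher; median log2 fold change 7.05, against -0.01 over all genes) and in R1P against R1 (15.2% of all genes higher; median 5.91, against -0.12). Between tissues genes of the list were called in both directions. In C5P against R5P, 3 of 17 were called higher and 3 lower (17.6% each, against 19.9% higher and 20.2% lower over all genes), with a median of 0.14. In C1P against R1P, 5 were called higher (3 with library totals) and 2 lower (29.4% and 11.8%, against 19.8% and 17.8%), with a median of 0.63. Without PEG, 3 were called higher and 4 lower in C5 against R5 (17.6% and 23.5%, against 21.2% and 23.7%; median -0.32), and 5 higher and 3 lower in C1 against R1 (29.4% and 17.6%, against 23% and 22.4%; median 0.53). These shares were near those over all genes and say nothing particular about the list.

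The genes farthest towards cotyledons in C1P against R1P were *MtrunA17_Chr4g0067471* (LEA_3) and *MtrunA17_Chr4g0054681* (LEA_1). The LEA_3 gene averaged 4019 CPM in C1P and 1084 CPM in R1P, a log2 fold change of 1.89 (adjusted p = 0.00023, edgeR), and the LEA_1 gene 515 CPM in C1P and 181 CPM in R1P, at 1.51 (adjusted p = 0.0018, edgeR). Farthest towards radicles was *MtrunA17_Chr1g0179641* (LEA_4), with 609.7 CPM in C1P and 1982 CPM in R1P, at -1.70 (adjusted p = 0.00044, edgeR). It was called lower in cotyledons in the other 3 pairs too, as *MtEM6* was, at -2.31 in C5P against R5P, -3.66 in C5 against R5 and -1.42 in C1 against R1.

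The genes that share a subgroup with an LEA gene described here are given next. No other LEA_5 gene was on the list beside *MtEM6*. Of the other SMP genes, *MtrunA17_Chr1g0185421* was called higher in cotyledons in C5P against R5P at 1.62, C1P against R1P at 1.504 and C5 against R5 at 1.03, whereas *MtrunA17_Chr1g0191151* had values of 0.17 in C5P against R5P and 0.44 in C1P against R1P, not called. Both were called higher with PEG in cotyledons and in radicles, the first at 5.70 in C5P over C5 and the second at 8.79.

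The other LEA_2 genes had the lowest log2 fold changes of the list with PEG at 1 mm, in both tissues. *MtrunA17_Chr8g0348161*, whose identifier directly precedes that of the LEA_2 gene described here, had 23 and 50 counts in the C5P replicates against 570 and 334 in C5, and 56 and 67 counts in C1P against 532 and 471 in C1. It was thus low in treated and high in untreated cotyledons, without overlap. It fell by 3.52 on the log2 scale in C5P over C5 (adjusted p = 0.0015, edgeR) and by 2.40 in C1P over C1 (adjusted p = 0.0056, edgeR), while in radicles it rose by 1.09 in R5P over R5 (adjusted p = 0.00027, edgeR) and its value in R1P over R1, 0.64, was not called.

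*MtrunA17_Chr2g0278391* was called lower with PEG in C5P over C5 at -1.04, in R5P over R5 at -1.07 and in R1P over R1 at -1.20. *MtrunA17_Chr2g0330241* was called only in R1P over R1, at 1.09, and stood at -0.49 in C5P over C5 and -0.52 in C1P over C1. All values of the LEA_2 gene described here were whole numbers, as they are where no read is divided between similar genes. This was not so for the LEA_1 genes *MtrunA17_Chr7g0258631* and *MtrunA17_Chr7g0258641*, whose counts are therefore uncertain.

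**Figure D5:**
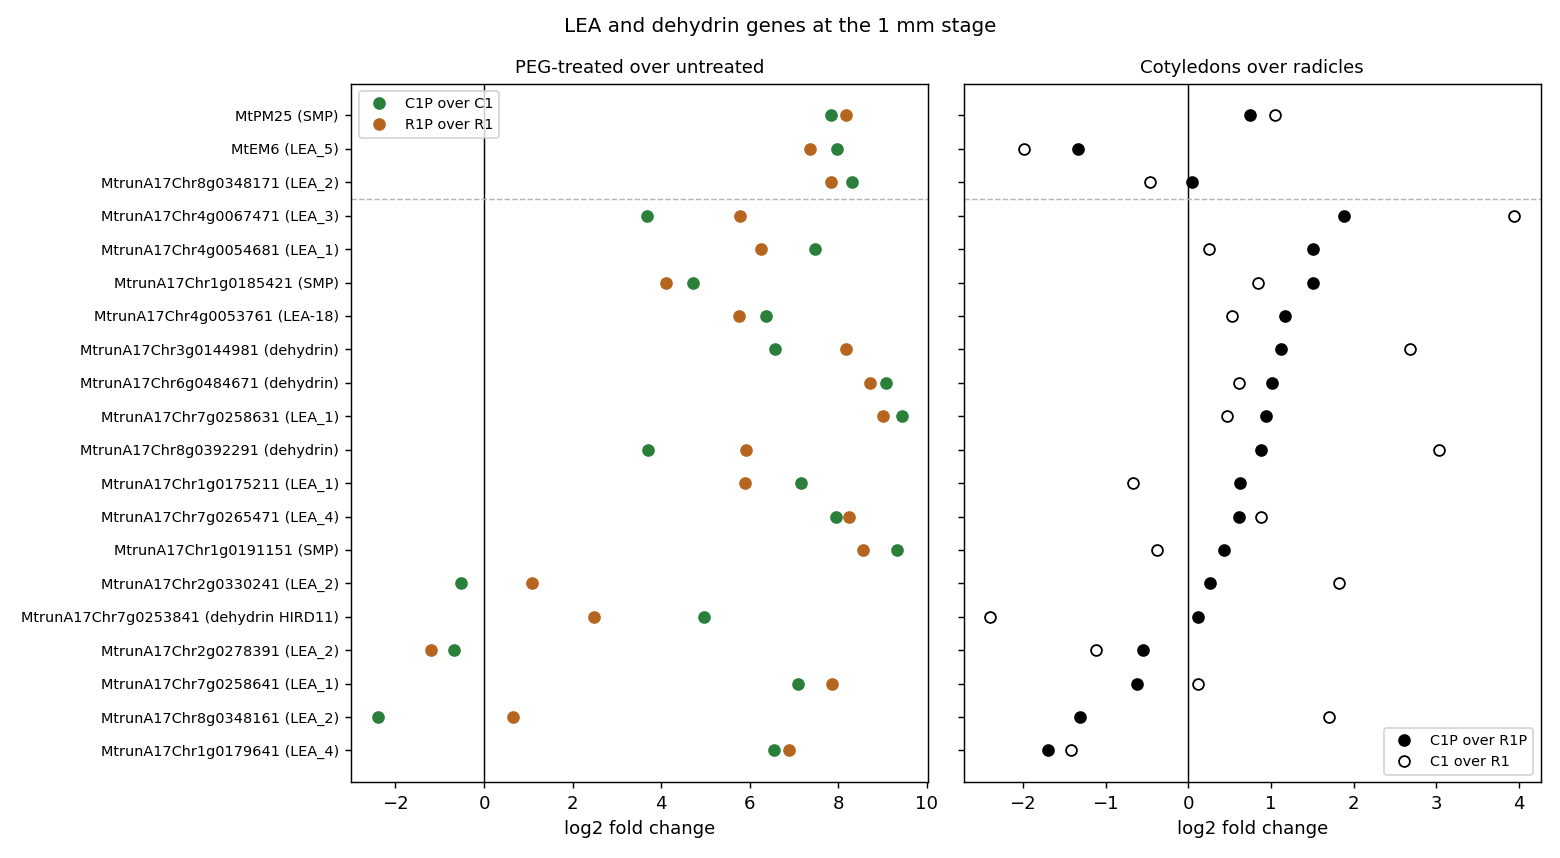
Log2 fold changes of the 3 LEA genes (above the dashed line) and the other 17 LEA and dehydrin genes (below it, ordered by C1P over R1P) at the 1 mm stage. The left panel shows PEG-treated over untreated in cotyledons (green) and radicles (brown), the right panel cotyledons over radicles with PEG (filled) and without (open). The LEA genes lie between 7.37 and 8.31 in the left panel, and between -1.99 and 1.04 in the right panel.

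The regulators *MtABI3*, *MtABI4* and *MtABI5*, transcription factors of ABA signalling in seeds, were called in different directions between the tissues. *MtABI3* was called higher in cotyledons in all 4 pairs, at 2.75 in C5P against R5P, 1.63 in C1P against R1P, 2.71 in C5 against R5 and 1.95 in C1 against R1, and *MtABI4* likewise, at 1.70, 1.02, 4.01 and 2.86 for the same pairs. *MtABI5* was called lower in untreated cotyledons, at -2.31 in C5 against R5 and -1.21 in C1 against R1. With PEG it stood on the other side, at 0.996 and 0.743 for C5P and C1P over their radicles. Both had an adjusted p under 0.05 (edgeR) but missed the fold threshold, so they were not called.

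Transcripts of 11-S storage proteins, globulins that embryos lay down in maturation, were read beside the LEA genes as 7 genes, of which 6 were tested in each tissue. They were found through the annotations in the study's supplement, so their counts, above all in radicles, may not be independent of its choice of genes. In C5P against C5, 3 of the 6 were called higher (50%, against 9.02% of all genes). In C1P against C1, 5 of the 6 were (83.3%, against 13.8%). In radicles all 6 were called higher in R5P against R5 (against 18.9% of all genes) and in R1P against R1 (against 15.2%). The summed level was 648 to 706 CPM in C5P against 94.7 to 114 in C5, 1000 to 1250 CPM in C1P against 230 to 232 in C1, 604 to 688 CPM in R5P against 29.7 to 34.5 in R5, and 2050 to 2090 CPM in R1P against 32.3 to 37.4 in R1.

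Single genes carried these sums. *MtleguminB* (*MtrunA17_Chr1g0185841*) alone averaged 1813 CPM in R1P and 507.7 CPM in R5P, whereas *MtrunA17_Chr1g0185811* averaged 32.4 CPM in C1P against 27.2 CPM in C1 and was not called. The gene not tested, *MtrunA17_Chr5g0405881*, was at or near 0 in every group. The part of these transcripts in the LEA results was not tested.

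The genes most like each LEA gene were sought by the Pearson correlation of log2(CPM + 1) over the 16 libraries, among 11883 genes averaging 10 CPM or more. These values are descriptions: the 16 points fall into treated and untreated libraries, which share PEG, tissue and stage, and 141 genes for *MtPM25*, 71 for *MtEM6* and 146 for the LEA_2 gene had an r over 0.95. Nearest to *MtPM25* were *MtrunA17_Chr1g0186321* (putative seed peroxygenase, r = 0.9967), *MtrunA17_Chr1g0166261* (putative protein, r = 0.9967) and *MtrunA17_Chr2g0333151* (putative CBS domain protein, r = 0.9956). Nearest to *MtEM6* were *MtrunA17_Chr3g0135971* (putative membrane alanyl aminopeptidase, r = 0.984), *MtrunA17_Chr8g0384701* (putative protein, r = 0.9836) and *MtrunA17_Chr8g0369111* (putative EF-hand protein, r = 0.9786).

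Nearest to the LEA_2 gene were *MtrunA17_Chr4g0000401* (putative protein, r = 0.9969), *MtrunA17_Chr4g0052651* (annotated as a 1-Cys peroxiredoxin, an antioxidant enzyme of seeds, r = 0.9962) and the LEA_1 gene *MtrunA17_Chr7g0258631* (r = 0.995). None of these 9 genes was among the 3 nearest by Spearman's rho, so the choice depended on the measure. Among themselves, *MtPM25* and the LEA_2 gene were closest (r = 0.9909), *MtEM6* and the LEA_2 gene less so (r = 0.9595), and *MtPM25* and *MtEM6* the farthest apart (r = 0.9256).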

How the data were processed

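The authors checked single-end reads with FastQC, assigned them to the Mtv5 reference transcriptome of *M. truncatula* with Salmon version 1.2 and deposited its estimated counts per gene (expected counts, which need not be whole), without scaling for depth or gene length. The deposited counts were rounded to whole numbers, and 0 columns were left unused. Counts were tested in R version 4.3.3 with edgeR version 4.0.16 (TMM, filterByExpr, quasi-likelihood test, Benjamini-Hochberg adjustment), in 3 models: the 8 cotyledon libraries (23060 genes, common biological coefficient of variation 0.296), the 8 radicle libraries (23793 genes, 0.175) and all 16 libraries (25524 genes, 0.247) for comparisons and interactions between tissues. The test was tried on simulated data first. SE is the absolute log2 fold change over the square root of the F statistic, and 95% intervals use the t quantile of the model. CPM use the factors of the model over 16 libraries.

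The genes and lists, and the rule for named genes, were chosen with earlier results of these data known. Besides the 3 LEA genes, the rule names the 3 genes nearest to each by Pearson r, and of the other LEA and dehydrin genes the 2 highest and 2 lowest in C1P against R1P, those sharing a subgroup or neighbouring identifier with an LEA gene, and those called against most of the list with PEG. Annotations are those of the study's supplementary tables. Of the LEA identifiers, 0 matched the RefSeq table used here, so no sequence is shown. Alternatives were RLE factors, library totals, no filter, DESeq2 version 1.42.0, the replicate number as a block, each replicate left out, other choices of libraries in the model, and the adjusted p alone. Labels state biological replicates without saying how they were separated, so p-values cover the spread between these libraries.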

Additional observations from a re-analysis of the deposited data

How the results depend on the processing

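Over the 54 tests of the 3 LEA genes, RLE factors, library totals, the replicate block and the adjusted p alone changed no call. The last of these could only have added calls. With no filter on low counts, 6 tests passed that had not: *MtPM25* in C5P over R5P (1.04), C1 over R1 (1.03) and C5 over R5 (1.31), the LEA_2 gene in C5 over C1 (-1.74) and C5P over C1P (-1.24), and *MtEM6* in the contrast of stage and tissue with PEG (-1.39). DESeq2 called 3 of these, the LEA_2 gene at -1.75 and -1.30 and *MtEM6* at -1.45. With all 16 libraries in the model, the LEA_2 gene passed at -1.74 and -1.25, and *MtPM25* in R5 over R1 (-1.83) no longer did. With only the 4 libraries compared, *MtPM25* passed in C5P over R5P (1.04). The cause was not tested. With a replicate left out, 276 tests kept their call, 9 lost it and 3 gained it. The ranges for results that changed were -2.27 to -1.65 (*MtEM6*, C5 over C1), -3.29 to -2.56 (*MtEM6*, C5P over C1P), -3.76 to -0.67 (*MtPM25*, C5 over C1), -1.91 to -1.02 (*MtEM6*, R5 over R1), -2.498 to -1.12 (*MtPM25*, R5 over R1), -1.51 to -0.94 (LEA_2, R5P over R1P), -1.71 to -0.9998 (*MtEM6*, stage and tissue with PEG) and -0.89 to 2.20 (*MtPM25*, C5 over R5). A group left with 1 library was assumed to vary like the others.

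The labels do not say whether replicate numbers pair the samples. Over 28 pairs of groups, same-numbered deviations correlated between -0.561 (C5 and C5P) and 0.302 (C1P and C5P), with 8 pairs over 0.1 and 6 under -0.1. These values cannot decide whether samples were paired under other numbers. With the replicate block, *MtEM6* in C1P over R1P stood at -1.28, and genes called fell to 391 from 1433 in C5P over C1P, to 1260 from 1988 in C5 over C1, and to 2 from 282 in the contrast of stage and PEG in cotyledons. Library totals shifted the median of all genes by -0.58 in C1P over C1, -0.37 in R1P over R1, -0.35 in R5P over R5 and 0.42 in C5P over C1P, and the calls were then 19.9, 25.3, 31.6 and 90.2% higher, against 48, 42.5, 48 and 64.5% with TMM. In 3 interactions this percentage moved too, to 29.6% against 50.5% with TMM (PEG and tissue at 1 mm), 55.5% against 41.8% (stage and tissue with PEG) and 76.3% against 45.7% (stage and PEG in cotyledons). Counts of the LEA genes were low in the untreated groups, where C5 replicate 2 held 7 and 4 counts of *MtPM25* and the LEA_2 gene.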
